A study of Mus musculus with 6 samples.

Results

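The genes examined here encode the proteasome, the protease complex that degrades ubiquitinated proteins, together with its activators, its inhibitor PI31 and its assembly chaperones. They were chosen by symbol, as every gene named Psma to Psmg followed by a number. This rule uses no measured value, although the family was taken up with earlier results of these data known. Of the 50508 gene rows, 48 matched and 46 were above 0 in at least 1 library, out of 19504 such genes in all. *Psma8*, an alpha subunit known from testis, and *Psmb11*, a catalytic subunit known from thymus, were listed at 0 in every library. The 46 genes comprised 17 core subunits (7 of the alpha ring, 7 of the constitutive beta ring and the 3 inducible subunits), 17 subunits of the regulatory particle (6 ATPases and 11 others), 3 chaperones of the base, 4 other activators, PI31 and 4 chaperones of the core.

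RNA came from primary mouse neurons transduced with a lentivirus, with 3 libraries from Ctrl-dCas9A neurons (guide against LacZ) and 3 from Kcna1-dCas9A neurons (guide sg19 against the promoter of *Kcna1*). Both groups carried the same activator, a nuclease-dead Cas9 fused to VP160 under the Ef1alpha promoter, which is not restricted to neurons, and by the labels they differed in the guide. Whether cultures, transductions or library batches were shared between the groups is not given in the sources used here. The sample labels give hippocampus as the tissue, whereas the study's methods describe cortical neurons of newborn C57Bl/6J pups. The study's methods speak of independent repetitions for its experiments in general, but the labels do not say whether the libraries of a group came from separate cultures. If they did not, the p-values measure a spread that is technical.

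The core particle is a barrel of stacked rings, in which the outer alpha rings gate the channel and the inner beta rings hold the proteolytic sites. The regulatory particle caps the barrel, recognises and removes ubiquitin chains, and threads the unfolded substrate into the core with its ring of ATPases. Neurons depend on this machinery for protein turnover at synapses, and the subunit genes are known to share a transcription factor, encoded by *Nfe2l1*, that acts through the antioxidant response element.

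No proteasome gene passed the threshold between the groups, an adjusted p under 0.05 from limma with Benjamini-Hochberg adjustment over all 19504 genes, against 226 of all genes (1.16%). The smallest adjusted p of a proteasome gene was 0.0512, for *Psmd8*, and 23 of the 46 had an unadjusted p under 0.05, against 23.2% of all genes. The log2 fold changes of the members were spread about as widely as those of all genes, with a standard deviation of 0.52 against 0.54. Among genes averaging at least 10 it was 0.51 against 0.50. The base ATPase gene *Psmc1* averaged 1.87-fold higher in Kcna1-dCas9A and the alpha ring gene *Psma5* was at 0.293 times its control mean, with log2 fold changes of 0.95 and -1.64. In 25 of the 46 genes the 3 libraries of one group all lay on one side of the 3 of the other, 9 higher and 16 lower in Kcna1-dCas9A. Among all genes this held for 22.2% (8.98% higher and 13.3% lower). Among genes averaging at least 10 it held for 24 of 44 proteasome genes and for 39.8% of all, 22 of the 44 had an unadjusted p under 0.05 (39.7% of all) and 13 an adjusted p under 0.1 (20.2% of all), so that the shares of the members lie nearer to those of all genes of like level.

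The count past the threshold depended on how the values were treated. By limma, 11 of the 46 genes passed when genes averaging under 1 were left out (11.3% of all genes left) and 17 of 44 when those under 10 were (28.4%). With median-of-ratios factors 12 passed (8.81% of all genes), with upper-quartile factors 7 (4.45%), without the gene *Gm42418* 13 (9.07%), with robust variance 17 (14.8%), and with a pseudocount of 0.1 the pair *Psma5* and *Psmd8* passed (3.21%). None (0) passed with a pseudocount of 0.5 (0.0513% of all genes past the threshold) or without the intensity trend (1.03%). At an unadjusted p under 0.05 these fits had 23 and 18 members, against 23.2% and 20.3% of all genes. The direction of every gene that passed in any of these fits was that of the main comparison given here.

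Values are whole numbers per gene that sum to between 999047 and 999717 in each library, and they were read as per-million values that the authors rounded. How many reads stand behind them is not known. The libraries were made from transcript 3′ ends, and whether the values were divided by gene length is not given in the sources used here. The targeted gene, *Kcna1*, had values of 16, 16 and 16 in the controls and 68, 47 and 65 in Kcna1-dCas9A, which matches the labels. Ctrl-dCas9A replicate 3 stood apart from the other two control libraries. Over 8050 genes averaging at least 10, its root mean square log2 difference was 0.459 and 0.427 from control replicates 1 and 2, and 0.353, 0.393 and 0.460 from Kcna1-dCas9A replicates 1, 2 and 3, whereas control replicates 1 and 2 differed by 0.303. In 19 of the 46 proteasome genes it lay between the other two control libraries and all 3 Kcna1-dCas9A libraries, a position that control replicates 1 and 2 each held in 2 genes. Of the 44 members averaging at least 10 it held this position in 19 (43.2%), against 28.3% of all 8050 genes of that level. Without it, 18 of the 46 genes passed the threshold (9 higher, 9 lower), against 14.2% of all genes. Without any other single library, 0 members and 0 of all genes passed by limma. At an unadjusted p under 0.05 these fits had 16 to 21 members, against 17.6% to 20.2% of all genes.

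**Figure D1:**
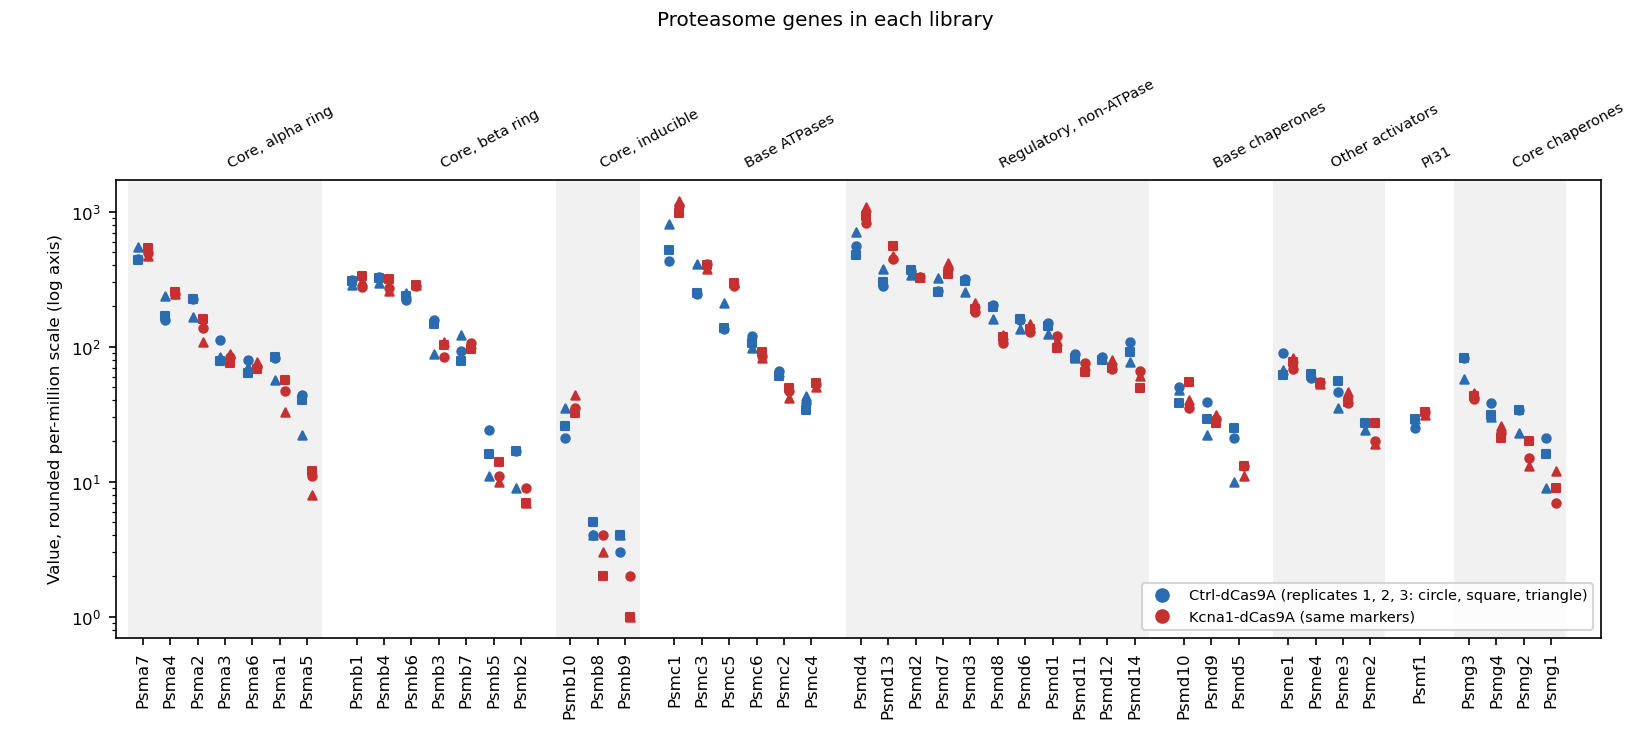
Values of the 46 proteasome genes in each of the 6 libraries, on the rounded per-million scale (log axis), with genes grouped by subclass and ordered by mean value within it. Blue marks Ctrl-dCas9A and red Kcna1-dCas9A, and the shapes give the replicate. The triangles of control replicate 3 for *Psmc1*, *Psmd4* and *Psmc5*, at 810, 709 and 210, lie above the other control libraries and below the Kcna1-dCas9A libraries.

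Lists of cell type and cell cycle markers were also compared between the groups. All 8 neuron markers were above 0, and they summed to between 6153 and 7080 in the controls and to between 7246 and 8630 in Kcna1-dCas9A, with 2 genes higher and 2 lower without overlap. The higher sum lay in *Tubb3*, a neuronal tubulin, at 1862, 1752 and 2605 against 3855, 3221 and 4591. Without it the other 7 summed to 4291, 4449 and 4475 against 4302, 4025 and 4039, and the groups overlapped. The 10 astrocyte markers summed to between 961 and 1069 against 702 to 718, with 6 lower without overlap. Microglia markers (8 genes, with *P2ry12* at 0 in every library) ran from 23 to 27 against 55 to 73, with 4 higher, and oligodendrocyte markers (8 genes, with *Mog* at 0) from 66 to 98 against 40 to 44, with 4 lower and 1 higher. The 8 cell cycle genes summed to between 111 and 113 against 67 to 72, with 6 lower. Groups were separate in 22.2% of all genes, in 39.8% of those averaging at least 10 and in 53.1% of those averaging at least 200, so that the neuron count lies near the share of all genes. The astrocyte markers *Aqp4*, *Sox9* and *Aldoc*, the microglia marker *C1qa* and the oligodendrocyte marker *Olig2* passed the threshold, against 1.16% of all genes. Of the neuron and the cell cycle list, 0 passed. The adjusted p from limma of those that passed lay between 0.0486 and 0.0497. Without any single library other than control replicate 3, 0 of all genes passed. The part of these markers in the proteasome values was not tested. In bulk RNA of this kind, fewer cells of a type and less RNA per cell cannot be told apart.

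Promoters were available for 40 of the 48 genes, as 43 windows of 300 bases (250 before and 50 after the transcription start) from RefSeq on GRCm38.p6. Not among them were *Psma8*, *Psmb1*, *Psmb2*, *Psmb7*, *Psmc3*, *Psmd3*, *Psmd7* and *Psmg2*. The letters TGACNNNGC, the core of the antioxidant response element, were searched on both strands. They were present in 6 of the 43 windows (14.0%), against 12.4% of 32851 promoters of the same length, and the longer form TGACTCAGC in 0 of 43 against 0.454%. The windows of 30 bases around these 6 matches are shown so that the letters found can be read beside the values of these members, at a share close to that of all promoters, each written 5′ to 3′ on the strand of the match with the match in capitals.
Psmb5: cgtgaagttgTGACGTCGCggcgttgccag
Psmb6: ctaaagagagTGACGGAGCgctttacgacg
Psmc6: gagcaatgccTGACTTAGCtactggctggc
Psmd9: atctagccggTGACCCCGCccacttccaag
Psmd12: gtctgaggggggcaaatgTGACACAGCaga
Psme4: gctcttctggTGACGCTGCagccgcagcgc

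Counted from the transcription start, the match began at position -47 in *Psmb5* (chr14:54618023-54618052, minus-strand gene) and at -9 in *Psmb6* (chr11:70525338-70525367), both on the strand of the gene. In *Psmd9* it began at -31 (chr5:123228149-123228178), also on the strand of the gene. It lay on the opposite strand in *Psmc6* at -227 (chr14:45329586-45329615), in *Psmd12* at -247 (chr11:107479278-107479307) and in *Psme4* at -7 (chr11:30771757-30771786). Positions here and below are those of the base of the match that comes first along the gene, also for matches on the opposite strand. In all 6 genes this base lies before the start, and in *Psme4* the match runs across the start. Of these genes, *Psmb6* was higher without overlap of the groups (log2 fold change 0.27), *Psmc6* (-0.30), *Psmd12* (-0.19) and *Psme4* (-0.18) were lower without overlap, and the groups overlapped in *Psmb5* (-0.45) and *Psmd9* (-0.01).

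The box CCAAT, searched on both strands, was in 14 of the 43 windows (32.6%), against 37.4% of all promoters. Windows are shown for *Psmc1* and *Psmd4*, the members with the highest mean values, and for the lower members *Psma2* and *Psmd14*, since the letters occur on either side.
Psmc1: acatgtttaaCCAATccttgtaccaaaccg
Psmd4: ggttggttatCCAATagagttggctacctt
Psma2: tgactctcctCCAATcagagcaaagaagaa
Psmd14: tttcacagtgCCAATcctgcttcactgagg

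In *Psmc1* (chr12:100110017-100110046) the box began at -175 and in *Psma2* (chr13:14613178-14613207) at -54, both on the strand of the gene. In *Psmd4* (chr3:95042695-95042724, minus-strand gene) it began at -95 and in *Psmd14* (chr2:61711520-61711549) at -159, both on the opposite strand. The windows of these last 2 genes each held a further pair of boxes after the start, beginning at 2 (opposite strand) and 21 (same strand) in *Psmd4* and at 5 (same strand) and 8 (opposite strand) in *Psmd14*. A match describes letters in the reference only, and nothing was measured at these positions.

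The comparison of the core with the regulatory particle first used the summed values of each. The 17 core genes summed to 2332, 2258 and 2292 in the controls and to 2174, 2360 and 2161 in Kcna1-dCas9A, and the groups overlapped. Their mean sums were 2294 ± 37.0 and 2232 ± 111 (SD, n = 3), a ratio of 0.973 that became 1.04 with median-of-ratios scaling and 1.06 with upper-quartile scaling. The 17 regulatory particle genes summed to 3607, 3568 and 4297 in the controls and to 4700, 4753 and 5149 in Kcna1-dCas9A, with no overlap. Their means were 3824 ± 410 and 4867 ± 245 (SD, n = 3), a ratio of 1.27, or 1.36 without control replicate 3.

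Most of the higher regulatory sum lay in *Psmc1* and *Psmd4*, a pair that was singled out after the values were seen. Together they held 987, 1000 and 1519 in Ctrl-dCas9A and 1925, 1918 and 2280 in Kcna1-dCas9A. Without them the regulatory particle summed to 2620, 2568 and 2778 against 2775, 2835 and 2869, a ratio of 1.06, and the groups overlapped narrowly. For all 46 genes the sum was 6471, 6318 and 7006 in Ctrl-dCas9A and 7251, 7531 and 7720 in Kcna1-dCas9A, which is 0.632% to 0.701% against 0.726% to 0.773% of the library. The ratio of the means was 1.14 with *Psmc1* and *Psmd4* and 1.01 without them (5430 ± 96.7 against 5460 ± 145, SD, n = 3). The latter became 1.07 with median-of-ratios and 1.09 with upper-quartile scaling, and the former 1.21 and 1.23.

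**Figure D2:**
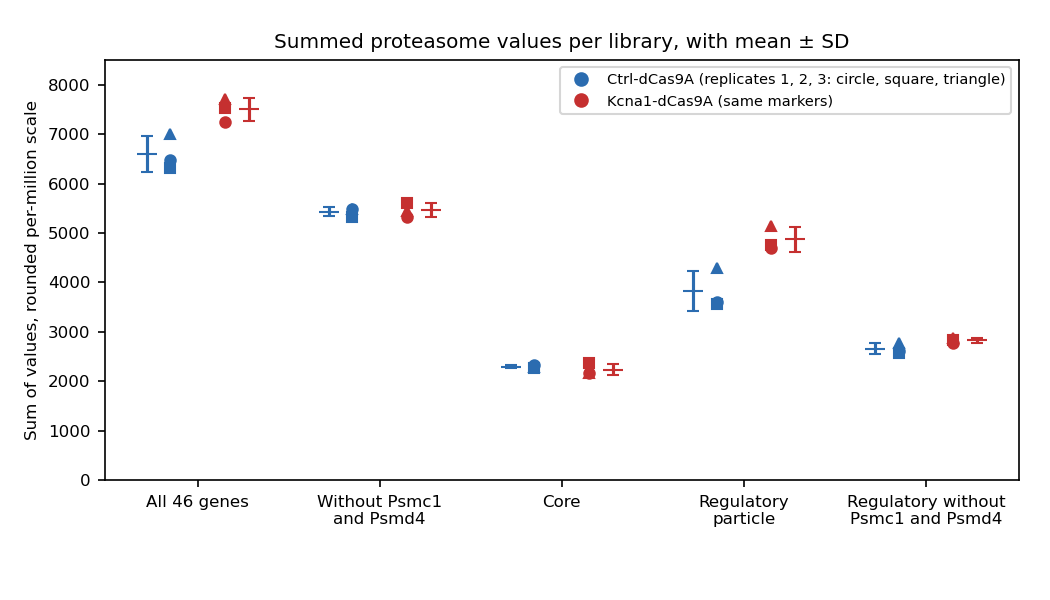
Summed values of the proteasome genes in each library on the rounded per-million scale, with the mean and SD of each group beside the points, for all 46 genes, the core, the regulatory particle, and for all genes and the regulatory particle again without *Psmc1* and *Psmd4*. The groups are separate for all genes and for the regulatory particle (4700 to 5149 in Kcna1-dCas9A), overlap in the core, and come close together once *Psmc1* and *Psmd4* are left out.

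Per gene, the core and the regulatory particle had close medians. The median log2 fold change was -0.16 over the core and -0.13 over the regulatory particle, a difference of -0.03, beside -0.02 over all genes tested and -0.06 over all genes averaging at least 10. Median-of-ratios and upper-quartile scaling moved this last value to 0.03 and 0.06, which is a shift of every gene by nearly the same amount. The median log2 difference of the core minus that of the regulatory particle was 0.03, 0.06 and -0.09 in the control libraries, each taken against the control mean, and 0.03, -0.05 and -0.17 in the Kcna1-dCas9A libraries. Groups were separate in 15 of 17 genes of the regulatory particle (6 higher, 9 lower) and in 5 of 17 of the core (2 higher, 3 lower), beside 22.2% of all genes. All 17 regulatory genes and 15 of the core genes averaged at least 10, where groups were separate in 39.8% of all genes, and they were separate in 4 of those 15 core genes. The difference between the classes was not tested, and their genes were of different level, with a median of the mean values of 151 in the regulatory particle and 87.0 in the core.

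**Figure D3:**
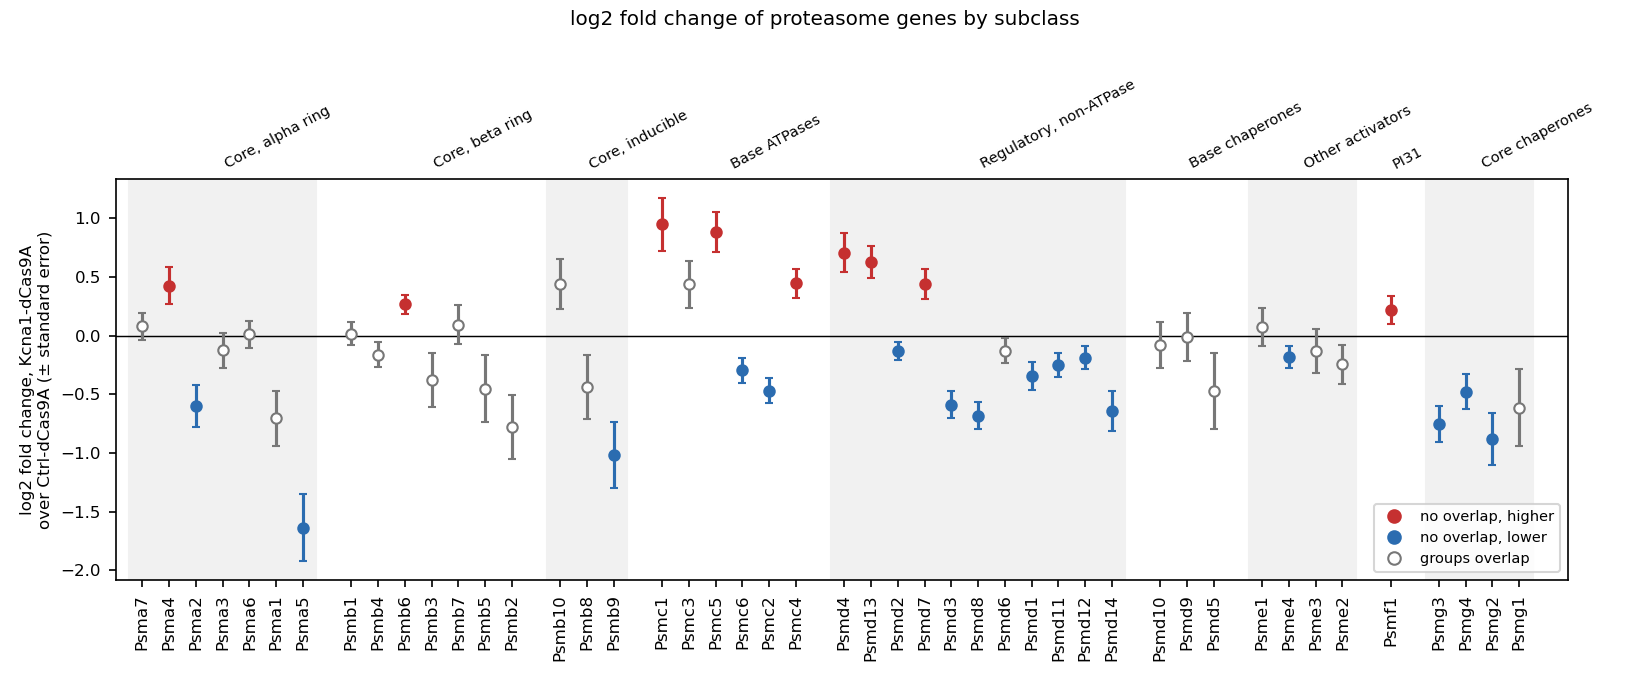
log2 fold change of each proteasome gene, Kcna1-dCas9A over Ctrl-dCas9A on log2(value + 1), with the standard error from limma, by subclass and ordered by mean value within it. Filled points mark genes whose groups did not overlap, red if higher and blue if lower. In the regulatory particle 15 of 17 points are filled, with both colours among the ATPases and among the other subunits, and the 4 core chaperones lie between -0.88 and -0.48.

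Among the ATPases of the base, which unfold substrates and open the gate of the core, 3 of 6 genes were higher in all Kcna1-dCas9A libraries and 2 were lower in all, beside 15.9% and 23.9% of all genes averaging at least 10. *Psmc1* was listed at 429, 519 and 810 in the controls and at 1103, 983 and 1203 in Kcna1-dCas9A (log2 fold change 0.95, standard error 0.23, limma adjusted p = 0.0624). *Psmc5* was listed at 136, 137 and 210 against 282, 294 and 298 (log2 fold change 0.88, standard error 0.17, limma adjusted p = 0.0550). In both genes control replicate 3 was the highest control and still below every Kcna1-dCas9A library. *Psmc4* stood at 38, 34 and 43 against 53, 54 and 50, a log2 fold change of 0.44 without overlap. *Psmc3* had a log2 fold change of 0.44 too, but its values of 245, 251 and 409 against 409, 405 and 377 overlapped, since control replicate 3 was as high as the highest Kcna1-dCas9A library. The log2 fold change of *Psmc3* lay between 0.31 and 0.68 with 1 library left out. It passed the threshold only without control replicate 3 and with robust variance. *Psmc2*, at 66, 61 and 65 against 47, 49 and 42, was lower in every Kcna1-dCas9A library (log2 fold change -0.47, standard error 0.11, limma adjusted p = 0.0556). *Psmc6* was lower by less, at 119, 106 and 97 against 86, 92 and 83. The RNA of the 6 subunits of this ring thus ran from -0.47 to 0.95 on the log2 scale, and 0 of the 6 genes passed the threshold. The complex uses these subunits in equal number, but proteasome protein was not measured.

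The remaining regulatory subunits include the ubiquitin receptors, the scaffold and the deubiquitinase of the lid. *Psmd4*, a ubiquitin receptor, was listed at 558, 481 and 709 in the controls and at 822, 935 and 1077 in Kcna1-dCas9A (log2 fold change 0.71, standard error 0.17, limma adjusted p = 0.0604). *Psmd13*, a subunit of the lid, was listed at 281, 302 and 373 against 449, 552 and 473 (log2 fold change 0.63, limma adjusted p = 0.0556). *Psmd7*, the partner of the deubiquitinase, was the third gene of this class that was higher without overlap, at 259, 252 and 323 against 373, 343 and 413. On the lower side, *Psmd8* of the lid was listed at 204, 195 and 160 against 107, 118 and 121, which is -0.68 on the log2 scale (standard error 0.12). *Psmd3*, another subunit of the lid, stood at 319, 305 and 255 against 181, 189 and 212 (log2 fold change -0.59, limma adjusted p = 0.0553). The groups were separate in both, with control replicate 3 again nearest to Kcna1-dCas9A and the gap narrower than the range of the controls. *Psmd14*, the deubiquitinase itself, was listed at 109, 91 and 77 against 66, 49 and 61 (log2 fold change -0.64, limma adjusted p = 0.0759), opposite in sign to its partner *Psmd7*. The scaffold gene *Psmd2* differed little, at 365, 369 and 341 against 329, 323 and 329 (log2 fold change -0.13), although its groups were separate. *Psmd1*, *Psmd11* and *Psmd12* were also lower without overlap, with log2 fold changes from -0.34 to -0.19, and *Psmd6* overlapped at -0.13. Of the 11 genes, 3 were higher and 7 lower without overlap, beside 15.9% and 23.9% of all genes averaging at least 10.

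In the alpha ring the 7 genes ran from -1.64 to 0.42, and *Psma5* had the lowest log2 fold change of all 46 genes. *Psma5* was listed at 44, 40 and 22 in the controls and at 11, 12 and 8 in Kcna1-dCas9A (log2 fold change -1.64, standard error 0.29, limma adjusted p = 0.0513). Every Kcna1-dCas9A library was below every control library, and the log2 fold change lay between -1.94 and -1.46 with each library left out in turn. *Psma2* was also lower without overlap, at 226, 225 and 166 against 137, 160 and 109 (log2 fold change -0.60). *Psma1* stood at 82, 84 and 57 against 47, 57 and 33, so that the groups met at 57. *Psma4* was the one alpha gene that was higher without overlap, at 158, 169 and 238 against 247, 253 and 247 (log2 fold change 0.42, limma adjusted p = 0.159). *Psma7* was listed at 446, 440 and 548 against 494, 541 and 473, which overlapped, as did *Psma3* and *Psma6*. Groups were thus separate in 3 of the 7 alpha genes, beside 39.8% of all genes averaging at least 10.

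The 3 constitutive catalytic genes differed in their patterns. *Psmb6*, the caspase-like subunit, was listed at 223, 238 and 251 in the controls and at 283, 286 and 287 in Kcna1-dCas9A, higher in every library by 0.27 on the log2 scale (standard error 0.08, limma adjusted p = 0.110). *Psmb5*, the chymotrypsin-like subunit and the target of proteasome inhibitors, was listed at 24, 16 and 11 against 11, 14 and 10, and the groups overlapped. Its log2 fold change was -0.45, and between -0.72 and -0.19 with 1 library left out. *Psmb7*, the trypsin-like subunit, was listed at 93, 78 and 121 against 106, 96 and 105, which also overlapped. Among the other beta ring genes the lowest was *Psmb2*, at 17, 17 and 9 against 9, 7 and 7, and *Psmb1* stood at 312, 306 and 285 against 276, 334 and 304. *Psmb3* and *Psmb4* overlapped between the groups as well. Groups were thus separate in 1 of the 7 constitutive beta genes, *Psmb6*, beside 39.8% of all genes averaging at least 10.

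The inducible subunits replace their constitutive counterparts after interferon, and 2 of the 3 were near the bottom of the scale. *Psmb8*, which replaces *Psmb5*, was listed at 4, 5 and 4 in the controls and at 4, 2 and 3 in Kcna1-dCas9A. *Psmb9*, which replaces *Psmb6*, was listed at 3, 4 and 4 against 2, 1 and 1 (log2 fold change -1.02, limma adjusted p = 0.0852), a difference of 1 to 3 units in values rounded to whole numbers. *Psmb10*, which replaces *Psmb7*, was listed at 21, 26 and 35 against 35, 32 and 44, with overlap. *Psme1* and *Psme2*, the paired subunits of the activator ring that interferon also induces, overlapped too. *Psme1* was listed at 90, 62 and 67 against 68, 77 and 83, and *Psme2* at 27, 27 and 24 against 20, 27 and 19. *Psme2* has a near-identical copy, *Psme2b* (10, 7 and 4 against 10, 5 and 12), so that its value is uncertain. The gene of the monomeric activator, *Psme4*, was lower without overlap at 59, 63 and 62 against 55, 54 and 53, and *Psme3* overlapped. *Psmf1*, which encodes the inhibitor PI31, was slightly higher, at 25, 29 and 29 against 33, 33 and 31 (log2 fold change 0.22, limma adjusted p = 0.305).

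All 4 genes of the chaperones that assemble the core had a log2 fold change below 0, with a median of -0.68, and their sum was 175, 163 and 120 in Ctrl-dCas9A against 86, 93 and 96 in Kcna1-dCas9A. *Psmg3* was listed at 82, 82 and 58 against 41, 43 and 45 (log2 fold change -0.75, standard error 0.16, limma adjusted p = 0.0556). *Psmg2*, which with *Psmg1* helps to build the alpha ring, was listed at 34, 34 and 23 against 15, 20 and 13 (log2 fold change -0.88, standard error 0.22, limma adjusted p = 0.0704). *Psmg4* stood at 38, 31 and 30 against 23, 21 and 26, and *Psmg1* at 21, 16 and 9 against 7, 9 and 12. The groups were separate in *Psmg2*, *Psmg3* and *Psmg4* and overlapped in *Psmg1*, whereas they were separate in 39.8% of all genes averaging at least 10. Of these 4 genes, 0 passed the threshold, and 2 had an adjusted p under 0.1 from limma, as did 14 of all 46 members, 11.6% of all genes and 20.2% of those averaging at least 10. The base chaperones *Psmd5*, *Psmd9* and *Psmd10* overlapped between the groups, with log2 fold changes from -0.47 to -0.01. *Psmd10*, the one of the 3 with the highest values, was listed at 50, 38 and 48 against 35, 55 and 40.

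**Figure D4:**
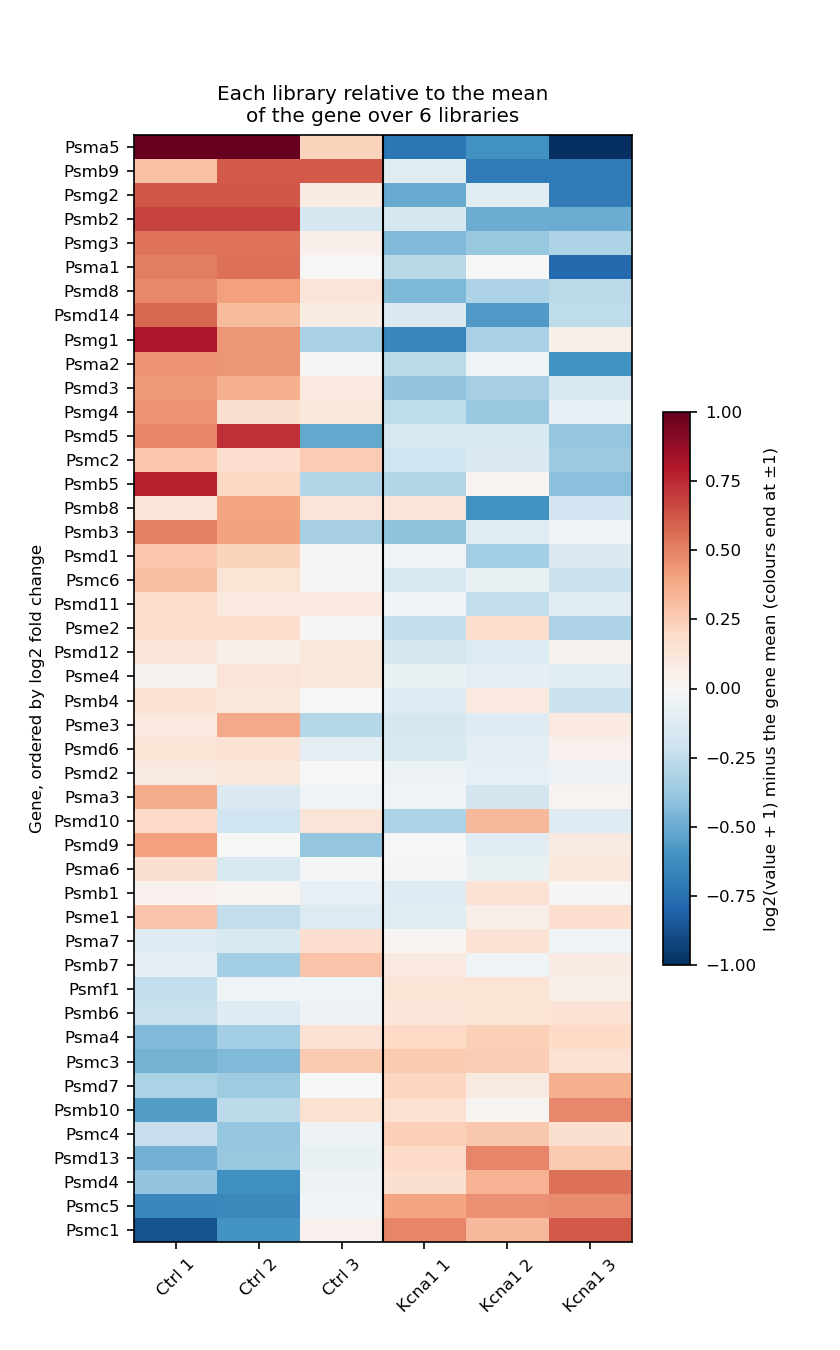
Each proteasome gene in each library as log2(value + 1) minus the mean of the gene over 6 libraries, with genes ordered from the lowest to the highest log2 fold change and a black line between the groups. Colours end at 1 in either direction. The column of Ctrl-dCas9A replicate 3 is paler than those of the other two control libraries, and in 19 genes its value lies between them and the Kcna1-dCas9A columns.

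The sign of the log2 fold change went with the level of the gene. Of the 13 members averaging at least 200, 10 had a log2 fold change above 0, with a median of 0.42, and of the 31 members with a mean value from 10 to under 200, 25 were below 0, with a median of -0.30. All genes leaned the same way in these ranges, with 456 of 749 above 0 (median 0.11) and 4173 of 7301 below 0 (median -0.07). Spearman's rho between the log2 fold change and the mean value was 0.53 over 44 members and 0.17 over 8050 genes, and 0.46 over 42 members without *Psmc1* and *Psmd4*. Genes are not independent replicates, and both measures share the same 6 libraries, so no p is given. With the GC content of the last 500 bases of the transcript, rho was 0.23 over the members and 0.31 over 7196 genes. Groups were separate in 9 of the 13 members averaging at least 200, against 53.1% of all genes of that level, and in 15 of the 31 from 10 to under 200, against 38.4%.

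**Figure D5:**
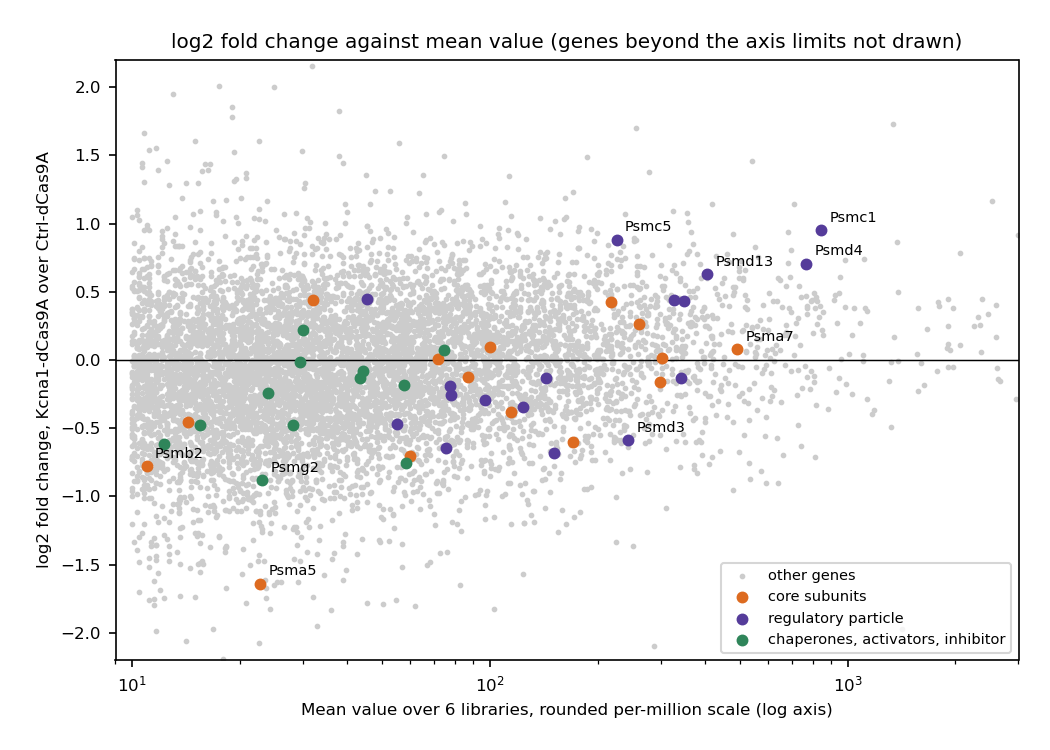
log2 fold change (Kcna1-dCas9A over Ctrl-dCas9A) against the mean value over 6 libraries (log axis) for genes averaging at least 10, with core subunits in orange, regulatory particle subunits in purple, other proteasome genes in green and all other genes in grey. *Psmc1*, *Psmd4* and *Psmd13* lie high on the right, and *Psma5*, at -1.64, lies lowest of the members.

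Other genes of the pathway were taken from a list of 24 partners of the proteasome and 5 ubiquitin genes. Of the 29, 1 passed the threshold, against 1.16% of all genes, and 12 had separate groups (2 higher, 10 lower), against 22.2%. Of the 23 that averaged at least 10, 10 had separate groups, near the 39.8% of all genes of that level. *Ubb*, a polyubiquitin gene, fell from 15, 10 and 12 in Ctrl-dCas9A to 4, 4 and 3 in Kcna1-dCas9A (log2 fold change -1.51, standard error 0.23, limma adjusted p = 0.0496). Its log2 fold change lay between -1.64 and -1.37 with 1 library left out, while the adjusted p from limma was 0.0310 without control replicate 3 and 0.112 to 0.143 without control replicate 1 or 2 or any Kcna1-dCas9A replicate. It was 0.0508 with a pseudocount of 0.5 and 0.111 with the replicate block, and at a mean value of 8 the rounding to whole numbers limits this gene. *Rps27a*, a fusion of ubiquitin with a ribosomal protein, was at 134, 102 and 127 against 67, 67 and 48 (limma adjusted p = 0.0510). The ubiquitin genes share coding sequence, so that reads could be split between them.

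Among the partners, *Ubqln2*, a shuttle of ubiquitinated proteins, was listed at 124, 98 and 69 against 43, 43 and 42 (log2 fold change -1.13, limma adjusted p = 0.0527). *Akirin2*, which brings proteasomes into the nucleus, stood at 93, 89 and 72 against 55, 42 and 44 (log2 fold change -0.84, limma adjusted p = 0.0527). *Sem1*, a small subunit of the regulatory particle without a Psm symbol, was listed at 125, 116 and 74 against 68, 51 and 51, also separate. *Adrm1*, a ubiquitin receptor of the regulatory particle, was the one partner that was higher without overlap, at 22, 23 and 24 against 28, 29 and 29 (log2 fold change 0.31, limma adjusted p = 0.164). *Pomp*, the chaperone of the beta ring, was at 451, 448 and 753 against 702, 728 and 728, where control replicate 3 exceeded every other library and the groups overlapped (limma adjusted p = 0.257). The log2 fold change of *Pomp* was 0.43, and between 0.30 and 0.68 with 1 library left out, whereas those of the 4 Psmg genes were below 0. *Pomp* passed the threshold only without control replicate 3 and with robust variance. *Nfe2l1* was listed at 96, 94 and 102 against 100, 85 and 90, and *Usp14*, a deubiquitinase bound to the proteasome, at 84, 76 and 65 against 72, 79 and 80. Both overlapped between the groups.

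For a single gene, 3 libraries against 3 cannot give a two-sided exact permutation p below 0.1, which is the value of all 25 members with separate groups. Of the 46 genes, 12 overlap another RefSeq gene on GRCm38.p6, among them *Psma4*, *Psmb5*, *Psmc5*, *Psmd13*, *Psme4* and *Psmf1*, and since no source says whether strand was used in counting, their values may hold reads of both genes.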

How the data were processed

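The 6 QuantSeq 3′ libraries were labelled as 3 Ctrl-dCas9A and 3 Kcna1-dCas9A samples. Each deposited file gives a score for every gene, a whole number read as a value scaled to a common total that the authors rounded; the scaling is not given in the sources used here. The study's methods name Bowtie2 and NCBI37/mm9, while the submitters' processing notes name STAR 2.7, featureCounts, DESeq2 and mm10. Depth is unknown, so no counting interval is given.

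The 19504 genes with any value above 0 entered the test as log2(value + 1) with limma 3.58.1 (R 4.3.3; intensity trend, group as the one factor, Benjamini-Hochberg adjusted p under 0.05), after a check on simulated data. A log2 fold change on this scale understates low genes. Members and lists were chosen with earlier results of these data known. Values per library were given for catalytic and inducible subunits, *Psme1*, *Psme2*, the 5 highest and 5 lowest log2 fold changes at a mean value of at least 10, the highest gene of each subclass, and *Nfe2l1*, *Pomp*, *Usp14* and *Ubb*; the other genes with values were named after these were seen. Of the 29 partners and ubiquitin genes, values are given for 9, while the counts cover all 29. GC content came from GENCODE vM1. Alternatives covered pseudocounts, filters, scalings, variance models, a replicate block and left-out libraries.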

Additional observations from a re-analysis of the deposited data

How the results depend on the processing

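The number of proteasome genes past the threshold depended on the processing, with 0 in 9 of 17 fits and 21 different genes past it in at least 1 fit. The latter count was not made over all genes, of which up to 2884 passed in a single fit, so it is not a trait of the members. It was 0 (10 of all genes, 0 partners) with a pseudocount of 0.5 and 2 (627, 4 partners) with 0.1, 11 (1543, 6 partners) without genes averaging under 1 and 17 (2289, 6 partners) without those under 10. Median-of-ratios factors gave 12 (1719 genes, 962 higher and 757 lower against 68 and 158, 5 partners), upper-quartile factors 7 (868 genes, 482 higher and 386 lower, 4 partners), leaving out *Gm42418* 13 (1768, 6 partners) and robust variance 17 (2884, 8 partners). Without the trend it was 0 (201). An adjusted p under 0.1 gave 14 (2258, 6 partners). Leaving out 1 library gave 0 to 18 (0 to 2711 genes, 0 to 8 partners), above 0 only without Ctrl-dCas9A replicate 3. The cause was not tested. With the replicate block, 0 proteasome genes, 0 genes in all and 0 partners passed, with a smallest adjusted p of 0.111 for the members. Same-numbered libraries correlated by 0.014, 0.114 and 0.154, and differently numbered ones by -0.156 to 0.099, most of them below 0. Control replicate 1 correlated best with another number. Whether the numbers mark pairs is not given in the sources used here, and the main fit did not take them as pairs.

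The core median was -0.075 with median-of-ratios and -0.046 with upper-quartile factors, and -0.25 to -0.13 with 1 library left out. The regulatory median was -0.043 and -0.014, and -0.19 to -0.11, and their difference ran from -0.13 to 0.013. Small log2 fold changes changed sign. With 1 library left out, *Psmb7* ran from -0.053 to 0.26, *Psme1* from -0.036 to 0.23, *Psmb1* from -0.054 to 0.083, *Psmd10* from -0.26 to 0.058, *Psma3* from -0.23 to 0.027, *Psma6* from -0.067 to 0.092, *Psmd9* from -0.21 to 0.19, *Psme3* from -0.31 to 0.025 and *Usp14* from -0.054 to 0.13. *Psmb1* was -0.0033 and *Psma6* -0.0067 without *Gm42418*. With median-of-ratios and upper-quartile factors *Psmd10* was 0.0072 and 0.036 and *Psmd9* 0.073 and 0.10, and *Nfe2l1* was 0.029 with the latter. Of 932 values of 55 genes, the 46 members among them, under these choices, 19 changed sign. For the summed values, added after seeing the data, the log2 ratio of the core turned to 0.050 and 0.078 with those factors. Without *Psmc1* and *Psmd4*, that of the members was 0.097 and 0.13 with those factors, -0.0084 without *Gm42418*, and ran from -0.012 to 0.026 with 1 library left out. DESeq2 was not run, because it needs counts. Unknown depth and whole-number rounding limit genes under about 10, such as *Psmb8*, *Psmb9* and *Ubb*.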
